A study of Homo sapiens with 6 samples.

Results

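The regions described here are the stretches of open chromatin on human chromosome 16 in HCT116 cells, an established colon cancer line, as called from ATAC-seq, in which a transposase inserts adapters into accessible DNA. A region is the union of the peaks of all libraries that overlap by at least 1 bp. Of 58926 such regions in the genome, 2181 (3.70%) lay on chromosome 16, with 947 on the short arm 16p (up to 35.3 Mb on build hg19, as all positions here) and 1234 on the long arm 16q (from 38.3 Mb). No region lay between these borders. The last region of 16p ended at 33964034 and the first of 16q began at 46391902. The chromosome was chosen by presence in the lists, because regions called only after NuMA depletion outnumbered those called only in wild-type cells there, so the comparison between these groups on it is a description and carries no test.

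The study compared HCT116 cells labelled NuMA depletion, whose libraries are named AID, with HCT116 cells labelled wild type, whose libraries are named NC, with 3 libraries in each group. How NuMA was removed, for how long, and whether both groups carry the same engineered background or received the same agents is not stated in the labels used here. The labels also leave it unsaid whether replicates were separate cultures, so any spread is that between libraries and may be technical. The series asks whether NuMA, a nucleoskeleton protein that also organises spindle poles, maintains local chromatin architecture.

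Accessible regions in ATAC-seq are mostly promoters, enhancers and insulator sites from which nucleosomes are displaced, and chromosomes rich in genes hold more of them per length than poor ones. Chromosome 16 is a gene-rich chromosome whose short arm carries many segmental duplications and whose long arm begins with a large block of constitutive heterochromatin beside the centromere. It is known for the alpha-globin genes near the tip of 16p, and for the genes of E-cadherin and of the insulator protein CTCF on 16q. No gene name is attached to a region here, because the annotation at hand is of another build, and for the same reason the colon identity of the cells was not checked against marker genes and no sequence is shown.

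The peak lists held 38466, 45892 and 21783 peaks in NuMA-depleted replicates 1, 2 and 3, and 35502, 38685 and 32503 in wild-type replicates 1, 2 and 3. Replicate 3 of the NuMA-depleted cells stood apart with the shortest list. Sequencing depth in reads is unknown. Relative depth was recovered from the peaks' own values on a scale where the 6 libraries average 1. It was 1.07 to 1.21 in NuMA-depleted and 0.762 to 0.975 in wild-type libraries. By this estimate, which was not checked against read numbers, each NuMA-depleted library was deeper than each wild-type one. NuMA-depleted replicate 3, with the shortest list, was at 1.11, and why its list is short was not tested. A region missing from a list failed the caller's threshold there and need not be closed.

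Group-only regions were unevenly split on chromosome 16, which is what it was chosen for. Regions called in all 3 NuMA-depleted and in no wild-type library numbered 21, and regions called in all 3 wild-type and in no NuMA-depleted library numbered 8. These are 0.963% and 0.367% of the chromosome's regions, where the whole series has 0.625% (368 of 58926) and 0.592% (349 of 58926). The difference of 13 was the highest of the 23 chromosomes, followed by chromosome 2 with 32 against 22, and the lowest was -12 on chromosome 17, with 12 against 24. By share, 0.963% was the highest depleted-only value of any chromosome and chromosome 20 came next with 0.900%, while the wild-type-only share of 0.367% was the 21st of 23. The higher estimated depth of the NuMA-depleted libraries moves with the 21, and its part in the count was not tested.

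**Figure D1:**
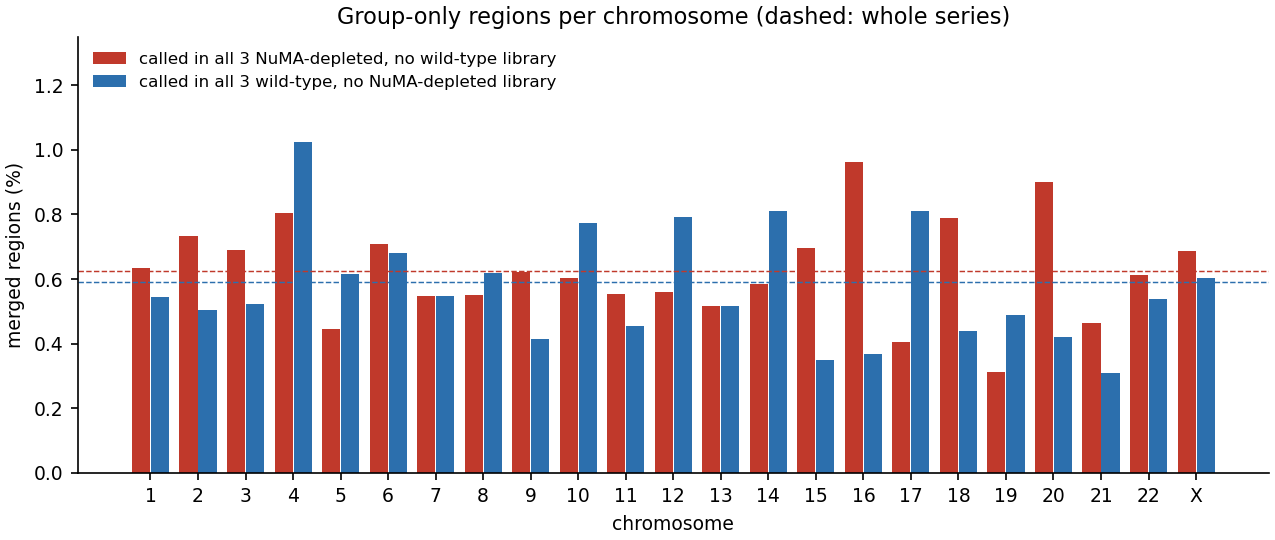
Percent of each chromosome's merged regions that were called in all 3 NuMA-depleted and no wild-type library (red) and in all 3 wild-type and no NuMA-depleted library (blue), with dashed lines at the values of the whole series, 0.625% and 0.592%. Chromosome 16 has the tallest red bar, 0.963%, beside a blue bar of 0.367%.

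The counts moved with the library left out, and the whole series moved with them. Without NuMA-depleted replicate 2, whose list is the longest, 21 depleted-only and 39 wild-type-only regions were counted, or 1.04% and 1.93% of the chromosome's regions, against 0.803% and 2.39% in the series. Without wild-type replicate 3 there were 25 and 27, or 1.17% and 1.26%, against 0.923% and 1.69%. Without NuMA-depleted replicate 3 the counts were 120 and 8, or 5.52% and 0.368%, against 4.59% and 0.632%. The wild-type-only count also rose to 15 without NuMA-depleted replicate 1, 23 without wild-type replicate 1 and 19 without wild-type replicate 2, which are 0.718%, 1.09% and 0.903% of the chromosome's regions, against 1.08%, 1.38% and 1.10% in the series.

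The difference in counts was smaller with a stricter threshold and with equal numbers of peaks, and larger with a common smallest width. With peaks of −log10 q 5 or more the counts were 14 and 9, or 0.728% and 0.468%, against 0.620% and 0.529% in the series. With the 21783 strongest peaks of each library they were 17 and 12, or 1.22% and 0.861%, against 1.26% and 0.975% in the series. The depleted-only share of the chromosome was then no longer above that of the series. With the same smallest peak width of 264 bp in all lists they were 24 and 3, or 1.19% and 0.149%, and the series drew apart as well, to 0.705% and 0.353%.

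Regions that just missed these sets did not all lean the same way. On chromosome 16, 18 regions were called in all 3 NuMA-depleted libraries and 1 wild-type library, and 37 in all 3 wild-type libraries and 1 NuMA-depleted library. A further 108 were called in 2 NuMA-depleted and no wild-type libraries, against 45 in 2 wild-type and no NuMA-depleted libraries. In the whole series these 4 kinds made up 1.18%, 2.05%, 4.41% and 2.25% of regions, and on chromosome 16 they made up 0.825%, 1.70%, 4.95% and 2.06%.

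The 21 depleted-only regions were spread over both arms, with 8 on 16p and 13 on 16q. Per length that is 0.227 per Mb on 16p and 0.251 per Mb on 16q, and they made up 0.845% of the regions of 16p and 1.05% of those of 16q. Their median width was 527 bp, against 555 bp over all regions of the chromosome. They were mostly weak by the fold over the caller's local background (column 7 of the files, a linear ratio that belongs to each list). In 14 of the 21 the fold was below the list's median in all 3 libraries. Weak folds were not particular to them. Regions of the chromosome called in any 3 libraries, these 21 included, had median folds of 5.80, 5.81 and 4.39 in NuMA-depleted replicates 1, 2 and 3. The list medians were 7.01, 6.63 and 6.08. Of the 21, 11 lay within 10 kb of another region and 1 within 1 kb. The same shares were not counted over all regions, so whether these counts set the 21 apart is not known. The median gap from a region to the next was 13.75 kb on 16p and 14.55 kb on 16q. That gap looks to 1 side only, while the counts take the nearer side, so they cannot be compared directly.

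The depleted-only region with the highest weakest −log10 q lay on 16q at 87704826 to 87705333. Its fold over local background was 8.14, 7.01 and 5.52 in NuMA-depleted replicates 1, 2 and 3, and no wild-type library called it. Its nearest neighbour, 10473 bp away, was called in 1 wild-type library alone. On 16p the region at 22429090 to 22429546 had folds of 7.15, 5.93 and 6.96, and the region at 928450 to 928725 had 10.1, 9.03 and 5.84. The last is the highest fold of any depleted-only region on the chromosome and the narrowest of them at 276 bp. It also stood alone, 62771 bp from the next region. The widest, 1246 bp, lay on 16p at 31879736 to 31880981 with folds of 7.25, 5.93 and 5.77. On 16q the region at 70973714 to 70974215 had folds of 4.90, 3.96 and 5.03, and that at 89475524 to 89476057 had 5.73, 5.70 and 4.29. Replicate 3 gave the lowest of the 3 folds in 4 of these 6 regions, and in 13 of all 21.

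Of the 15 weaker depleted-only regions, 9 lay in 3 runs with their like under 1 Mb apart, a distance chosen after the positions were seen. The run on 16q from 56776453 to 57813615 held 4 of them among 51 regions, beginning at 56776453, 57350323, 57677041 and 57813089. A second run on 16q, from 84256820 to 84512400, held 3 among only 13 regions, beginning at 84256820, 84403774 and 84511879. The third, on 16p, held the pair beginning at 8979456 and 9352258, of which the first lay 114 bp from a region called in all 6 libraries. The other 6 began at 2065438, 20917677 and 29818879 on 16p and at 47170185, 55331100 and 68957200 on 16q. Over these 15, folds in single libraries ran from 2.91 to 7.55, the lowest at 29818879 in replicate 3 and the highest at 57350323 in replicate 1.

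**Figure D2:**
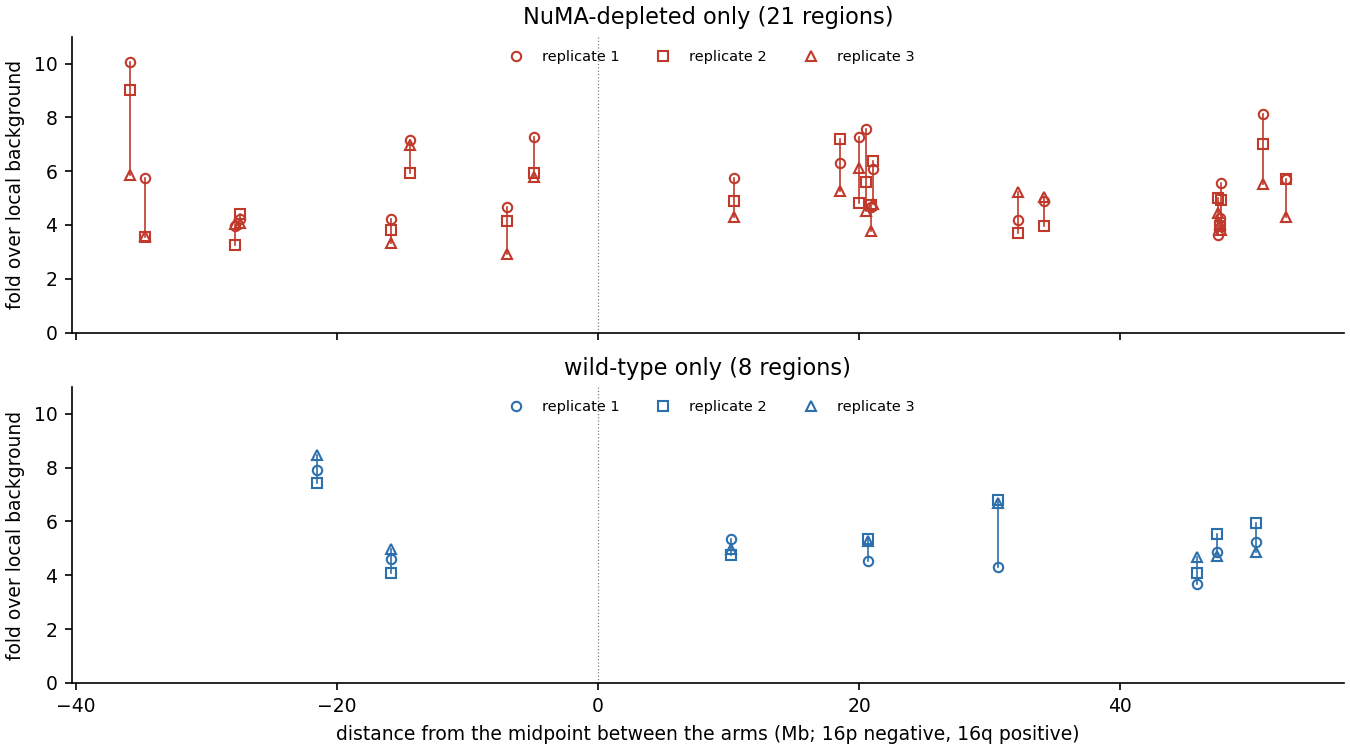
Fold over the caller's local background (linear ratio, each list's own value) of the 21 regions called only in NuMA-depleted libraries (top) and the 8 called only in wild-type libraries (bottom), by distance in Mb from the midpoint between the arms; symbols are the 3 replicates, joined per region. Depleted-only folds reach from 2.91 to 10.1 and wild-type-only folds from 3.69 to 8.49, and both kinds occur on both arms.

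Of the 8 wild-type-only regions, 6 lay on 16q, the arm that held 56.6% of all regions of the chromosome, and 2 on 16p. These regions made up 0.486% of the regions of 16q and 0.211% of those of 16p, and the split was not tested. The strongest by the weakest −log10 q was on 16p at 15248587 to 15249228, with folds of 7.91, 7.44 and 8.49 in wild-type replicates 1, 2 and 3. Next came 84174829 to 84175079 on 16q, with 4.88, 5.55 and 4.73, and 20916155 to 20916475 on 16p, with 4.62, 4.08 and 4.96. The region at 20916155 lay 1201 bp from the depleted-only region at 20917677 to 20918223, whose folds were 4.21, 3.80 and 3.32, the nearest pair of opposite kind on the chromosome. On 16q the regions at 87166192 to 87166573, 47006544 to 47007003 and 57450905 to 57451206 had mean folds of 5.35 ± 0.547, 5.02 ± 0.296 and 5.06 ± 0.443 (SD, n = 3 each). The remaining 2, at 67430149 to 67430565 and 82663293 to 82663845, had 5.93 ± 1.41 and 4.14 ± 0.495 (SD, n = 3 each). As with the depleted-only kind, weak calls prevailed, since 7 of the 8 were below the list median in all 3 libraries. Here too, regions called in any 3 libraries were weak, with median folds of 4.97, 5.82 and 5.42 in wild-type replicates 1, 2 and 3. The list medians were 6.57, 7.38 and 6.88. The region at 84174829 lay 81.7 kb from the nearest of the 3 depleted-only regions of that stretch.

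Along the chromosome, open regions were concentrated at both ends and in a few blocks between long empty stretches. The first 5 Mb of 16p held 288 regions, 57.6 per Mb, and the remainder of 16p 21.7 per Mb. The last 5 Mb of 16q held 266, or 53.2 per Mb. Of the 91 bins of 1 Mb, 15 (16.5%) averaged 30 peaks or more over the 6 libraries, against 5.92% of the 2955 bins on the other chromosomes. At the same time 21 bins (23.1%) held no peak in any library, against 15.0% elsewhere, and the bins across the centromere are counted among them.

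The densest bins held many peaks in every library, fewest in the shortest list. On 16p, the bin from 30 to 31 Mb held 49, 54 and 37 peaks in NuMA-depleted and 52, 51 and 44 in wild-type replicates 1, 2 and 3. The bin from 2 to 3 Mb held 55, 55 and 32 against 45, 47 and 44 in the same order of libraries, and the bin from 4 to 5 Mb held 48, 59 and 32 against 47, 48 and 44. On 16q the densest bin of the chromosome, from 85 to 86 Mb, held 51, 66 and 21 peaks in NuMA-depleted and 53, 59 and 48 in wild-type libraries. In each of these 4 bins NuMA-depleted replicate 3 was the lowest of the 6 libraries, and the numbers of the 2 groups overlapped. The bins from 67 to 68 Mb and from 89 to 90 Mb followed on 16q, with 48, 54 and 26 and with 48, 52 and 29 peaks in NuMA-depleted libraries, against 39, 50 and 46 and 39, 45 and 38 in wild-type libraries.

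Between the dense blocks lay 11 stretches of at least 500 kb without a call in any library, counting the heterochromatic one. From 33964035 to 46391901, across the centromere, 12.4 Mb had none, the 4th longest such stretch in the genome. Whether the build holds sequence to map to there was not checked, so the lack of calls need not mean closed chromatin. On 16q a further 7.13 Mb from 58878562 to 66008991 were empty in all 6 libraries, the 10th longest in the genome, between a block from 46 to 59 Mb with 26.5 regions per Mb and one from 66 to 72 Mb with 50.3. On 16p the longest ran from 5684289 to 8617523 over 2.93 Mb. The next on 16q, 1.69 Mb, ran from 51160063 to 52846924. The sparse stretch from 72 to 81 Mb held 163 regions, 30.1% of them called in a single library.

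**Figure D3:**
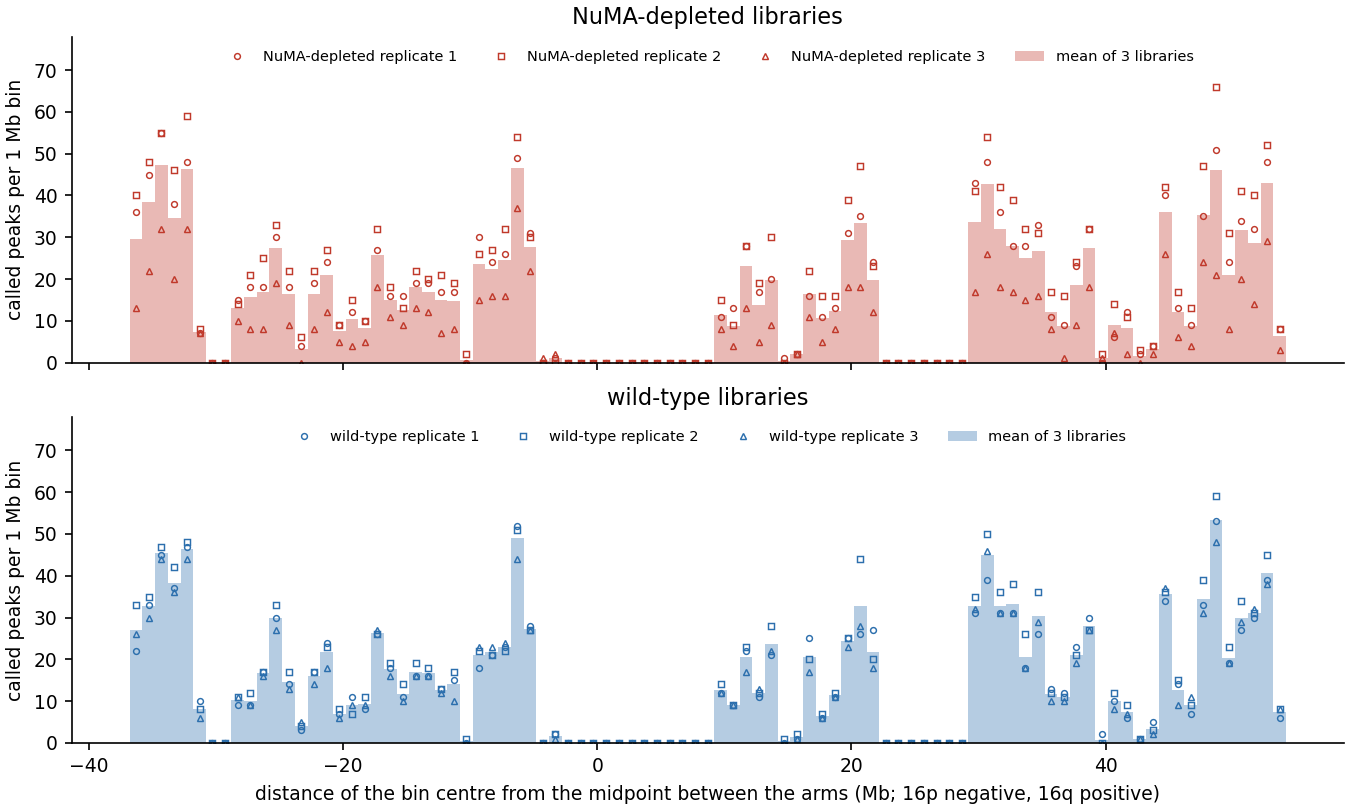
Called peaks per 1 Mb bin along chromosome 16 in the 3 NuMA-depleted (top) and 3 wild-type libraries (bottom); bars are group means, symbols single libraries, and the axis gives the distance in Mb from the midpoint between the arms. In both groups the ends are dense, and the stretch across the centromere and the 7.13 Mb on 16q hold no peak; the lowest symbols in the top panel are those of replicate 3.

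The share of a library's peaks falling in a bin differed between the groups without overlap in 9 of the 61 bins that averaged 5 peaks or more. It was higher in every NuMA-depleted library in 5 bins (1 to 2, 9 to 10, 54 to 55, 56 to 57 and 70 to 71 Mb) and lower in 4 (3 to 4, 53 to 54, 69 to 70 and 85 to 86 Mb). Over the genome 6.08% of 2022 such bins were higher and 5.49% lower. Neighbouring bins went opposite ways at 53 to 55 Mb and again at 69 to 71 Mb. From 53 to 54 Mb the shares were 0.0416%, 0.0479% and 0.0505% in NuMA-depleted and 0.0704%, 0.0517% and 0.0523% in wild-type libraries. From 54 to 55 Mb they were 0.0286%, 0.0349% and 0.0230% against 0.0169%, 0.0181% and 0.0185%. The numbers of peaks overlapped in both bins. They were 16, 22 and 11 against 25, 20 and 17, and then 11, 16 and 5 against 6, 7 and 6. Shares of the chromosome as a whole overlapped, with 3.97%, 3.84% and 3.79% of the list in NuMA-depleted and 3.77%, 3.82% and 3.94% in wild-type libraries. So did the part of its peaks on 16p, at 45.7%, 44.1% and 48.5% in NuMA-depleted against 45.0%, 43.6% and 44.6% in wild-type libraries. The highest was again NuMA-depleted replicate 3, which called 41.9% of the regions of 16p and 34.2% of those of 16q.

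Peaks per length of arm were more on 16p than on 16q in each of the 6 libraries, a contrast the choice of chromosome did not use. The arm lengths count the empty stretch across the centromere, which lies largely on 16q. The density was 17.4 ± 3.62 peaks per Mb on 16p and 14.5 ± 3.62 on 16q (SD, n = 6), with a difference of 2.91 ± 0.534 within libraries (exact sign-flip permutation test over libraries, two-sided, p = 0.03125, the smallest that 6 libraries allow; adjusted over 5 such tests p = 0.0521). Counted over the span from the first to the last region of each arm, which leaves out the heterochromatic block, the difference shrank to 0.966 peaks per Mb with the same exact p, and the merged regions were at 28.0 per Mb on 16p and 28.2 on 16q. Peaks less than 1 kb from the next were also more frequent on 16p in 6 of 6 libraries, at 3.35% ± 0.691 against 2.71% ± 1.07 (SD, n = 6; exact p = 0.03125, adjusted 0.0521). In NuMA-depleted replicate 1 the shares of 16p and 16q were nearly equal, at 3.30% and 3.25%. With equal numbers of peaks, 16p was higher in 5 of 6 libraries (exact sign-flip p = 0.09375). With a gap of under 5 kb the difference turned to -0.110 percentage points (exact p = 0.8125). None of these differences passed the adjusted threshold of 0.05.

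Neither peak width nor fold separated the arms by the same test. The median peak width was 467 ± 45.6 bp on 16p and 451 ± 41.8 bp on 16q (SD, n = 6), wider on 16p in 5 of 6 libraries (exact p = 0.09375, adjusted 0.117), with NuMA-depleted replicate 3 the exception at 418 bp against 428 bp. The median list percentile of the fold was 47.3 ± 2.08 on 16p and 45.9 ± 2.14 on 16q (SD, n = 6; exact p = 0.21875, adjusted 0.219), and 16p was higher in 4 of 6 libraries. Without NuMA-depleted replicate 2, which had 50.1 against 43.9, the mean difference of 1.38 points was 0.415.

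Chromosome 16 held more peaks per length than the other chromosomes pooled in 6 of 6 libraries. Its density was 15.2 ± 3.49 peaks per Mb, against 11.6 ± 2.63 elsewhere (SD, n = 6; exact p = 0.03125, adjusted 0.0521), and with 24.2 merged regions per Mb it ranked 5th of 23 chromosomes. Whether the 6 libraries of this single line share a karyotype was not checked. These tests cover the spread between libraries only.

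**Figure D4:**
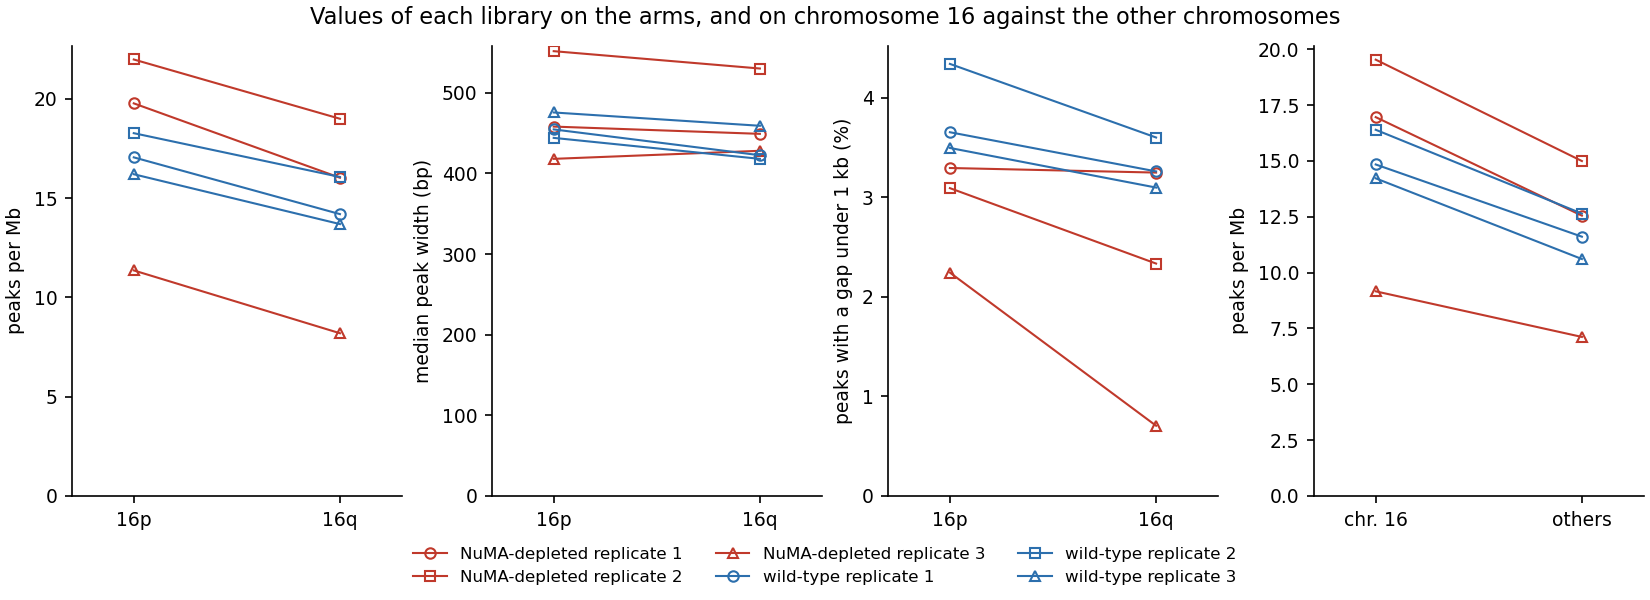
Values of each library on 16p and 16q (peaks per Mb, median peak width in bp, percent of peaks less than 1 kb from the next) and on chromosome 16 against all other chromosomes (peaks per Mb); each line is 1 library, red for NuMA-depleted and blue for wild-type. Lines fall to the right in 6 of 6 libraries except for peak width, where NuMA-depleted replicate 3 is lower on 16p.

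About as many regions were shared by all libraries as on the other chromosomes pooled, and fewer were called by one alone. All 6 libraries called 661, which is 30.3%, against 28.8% on the other chromosomes. The 95% exact Clopper-Pearson interval of the 30.3% is 28.4% to 32.3%. It covers counting error only and takes regions as independent, though regions are not replicates, so it is no test. A single library called 473 (21.7%), against 25.2% elsewhere. A low single-library share was not particular to chromosome 16: it was 20.4% on chromosome 19, 21.5% on 21 and 22.0% on 22. On 16p 318 of 947 (33.6%) were called in all 6, and on 16q 343 of 1234 (27.8%). Single-library regions were short, with a median of 295 bp, and width grew with the number of libraries up to 890 bp for those called in all 6.

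The next most common pattern was absence from NuMA-depleted replicate 3 alone. It covered 250 regions, 11.5% of the chromosome's, against 8.69% in the whole series, with 100 on 16p and 150 on 16q. Absence from any other single library was found in 3 to 23 regions. Regions of 1 library only numbered 94, 183 and 7 for NuMA-depleted and 66, 77 and 46 for wild-type replicates 1, 2 and 3. NuMA-depleted replicates 1 and 2 together, with no other library, called 99 regions (4.54%, against 3.94% in the series), 50 on 16p and 49 on 16q. In all, the 3 NuMA-depleted libraries called 69.2%, 80.7% and 37.6% of the chromosome's regions, and the 3 wild-type libraries 60.5%, 66.4% and 58.0%, so the groups overlapped.

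**Figure D5:**
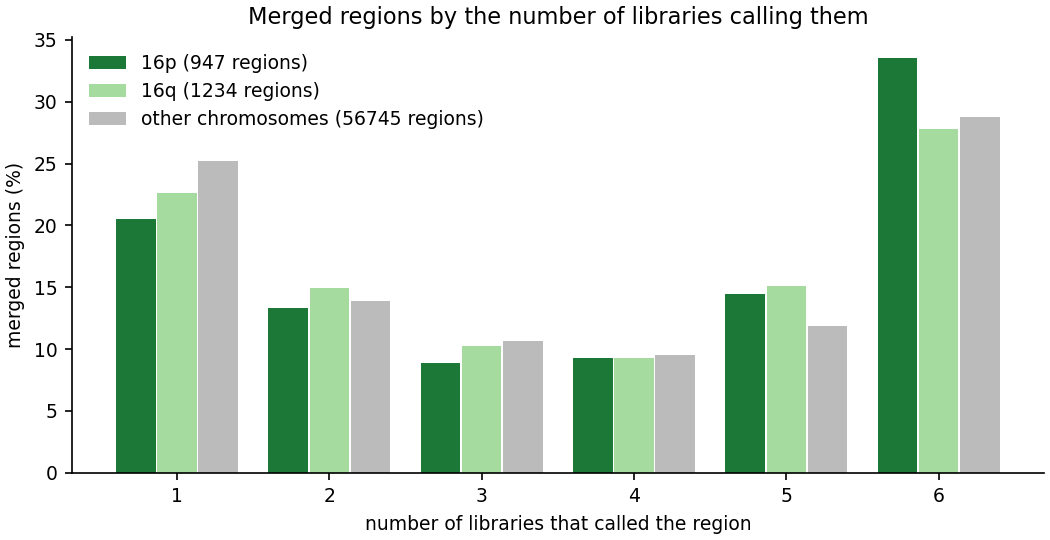
Percent of merged regions by the number of libraries that called them, for 16p, 16q and all other chromosomes. The bars for 6 libraries stand at 33.6%, 27.8% and 28.8%, and those for a single library at 20.5%, 22.6% and 25.2%.

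Folds on the chromosome were slightly below those of each list as a whole. The median fold was 6.92, 6.45 and 5.94 in NuMA-depleted replicates 1, 2 and 3, against list medians of 7.01, 6.63 and 6.08, and 6.22, 7.14 and 6.76 in the wild-type replicates, against list medians of 6.57, 7.38 and 6.88. It was below the list median in 6 of 6 libraries. Among regions called in all 6 libraries, chromosome 19 had a lower median percentile of the fold than chromosome 16 in each library. The values ran from 35.2 to 41.9 on chromosome 19 and from 40.7 to 47.2 on chromosome 16. The local background that forms the denominator of the fold, in multiples of the smallest background of the library, was higher at the same time: its median was 2.35 to 3.22 on 16p and 2.60 to 3.35 on 16q, against 2.10 to 2.58 over whole lists. Its part in the lower folds was not tested. The highest fold of any peak on the chromosome was 18.2, in NuMA-depleted replicate 1.

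Among regions called in all 6 libraries, the strongest by the weakest −log10 q was on 16q at 81110265 to 81111353. Its folds were 14.1, 12.1 and 12.4 in NuMA-depleted and 11.8, 13.1 and 12.9 in wild-type replicates 1, 2 and 3, so the groups overlapped, and it stood above 96% of the shared regions of the genome in each library. The next on 16q lay at 50775578 to 50776061, with 10.6, 11.1 and 11.8 in NuMA-depleted and 12.7, 12.5 and 12.7 in wild-type libraries. Each NuMA-depleted fold was below the wild-type ones, but its percentile among the shared regions of the genome overlapped, at 86.2, 93.0 and 99.5 in NuMA-depleted and 98.9, 93.8 and 98.9 in wild-type libraries. The third, at 89556953 to 89557606, had folds from 7.88 to 11.3. On 16p the strongest was at 5147642 to 5148663, with 9.06, 9.99 and 11.4 in NuMA-depleted and 12.2, 9.29 and 11.5 in wild-type libraries. It was followed by 30032400 to 30033256, with folds from 9.62 to 11.8, and 8891060 to 8892320, with folds from 9.54 to 11.4. The longest shared regions, 2061 bp at 31083960 to 31086020 on 16p and 2321 bp at 77245981 to 77248301 on 16q, had lower folds, from 4.11 to 6.79 and from 6.46 to 7.70.

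Over the 661 shared regions the highest fold was a median 1.50 times the lowest, as against 1.53 times on the other chromosomes, and the lowest fell to NuMA-depleted replicate 3 in 384 of them (58.1%, against 57.7% elsewhere). Ranked among all 17009 shared regions of the genome, those of 16p had a median percentile of 46.4, 45.0 and 46.7 in NuMA-depleted and 38.2, 41.6 and 42.1 in wild-type libraries, without overlap. Those of 16q had 47.6, 45.6 and 47.4 in NuMA-depleted and 44.4, 43.7 and 48.5 in wild-type libraries, which overlapped, as did the chromosome as a whole. By whole chromosome such a separation with NuMA-depleted libraries higher was seen on 8.7% of the 23 chromosomes (9 and 19), and lower on 4.35% (chromosome 5). No such share was counted over arms, so how often an arm separates like 16p is not known. All 3 NuMA-depleted libraries were also the deeper ones by the estimate, and the part of depth in these percentiles was not tested.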

How the data were processed

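ATAC-seq peak lists of 6 HCT116 libraries were analysed. The build, hg19, and the tools Bowtie2 2.4.1, Picard and Trim Galore come from the submitters' processing notes, and peak names in the deposited files record a macs2 folder. No source used here states the caller's settings or any read filter. Each deposited list gives, per peak, a fold over local background (a linear ratio), a −log10 p-value, a −log10 q-value (at least 2.00) and a score, which follows 10 times the −log10 q and was not used. All folds and q-values are the authors' own and describe peaks within their list; the scale is not known to be common to the lists. Peak numbers inside each list ran without gaps.

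Lists were merged at 1 bp overlap, and a region took the strongest peak by q of each library. Peaks were put in arms and 1 Mb bins by summit, regions by midpoint. Arm length was 35.3 Mb for 16p and 51.8 Mb for 16q, up to the last region; other chromosomes were measured to their last region. Depth was recovered from the fold and p-value of each peak with Poisson tails (whole pileups within 0.01 for 99.99% of peaks), with the smallest background divided by the smallest width taken as proportional to depth. Differences within libraries were tested by exact sign flips (64 patterns) with Benjamini-Hochberg adjustment over 5 tests. Merging and test were tested on simulated data, and the recovery of depth was not. Named regions are the 6 strongest of each group-only kind, the 3 strongest and the longest shared region per arm, and the 3 densest bins per arm. Gene lists and motif searches were not run, since no hg19 annotation or genome was used. Members and lists were chosen with earlier results of these data known. The software was scipy 1.17.1, numpy 2.4.6, statsmodels 0.14.6 and pandas 2.3.3 under Python 3.11.15.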

Additional observations from a re-analysis of the deposited data

How the results depend on the processing

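No paired analysis was possible because the comparisons between NuMA-depleted and wild-type libraries come from no test, so there is no fit to which the replicate number could be added as a block; the 5 tests run take differences within each library. The 5 within-library differences kept the sign of their mean with peaks of −log10 q 5 or more, with lists of equal length and without each library. None passed an adjusted 0.05 under any of these. With 5 libraries the exact p cannot go below 0.0625. The difference in closely spaced peaks alone reversed, to -0.110 percentage points with a 5 kb gap. With equal numbers of peaks, 1393 regions remained on the chromosome and 34.9% were called in all 6 libraries; 16.1% were when a library had to cover 50% of the merged region. With 2 of 3 libraries sufficing, 129 depleted-only and 53 wild-type-only regions were counted (5.91% and 2.43% of the chromosome's, against 5.04% and 2.85% in the series), and 3 wild-type-only regions with a common smallest width. Leaving out each library gave 21 to 120 depleted-only and 8 to 39 wild-type-only regions, and 32.0% to 41.9% called in all libraries left. The share on 16p was 43.3% to 44.4% under every alternative run. The cause of these shifts was not tested, except that fewer peaks or fewer required libraries change counts by construction. Absence from a list is limited evidence, since a region not called may lie just under the threshold.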

Other observations

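Chromosome 16 was dense in open regions per length but not per gene. In RefSeq (assembly GRCh38.p14, used only to count names by chromosome) it has 854 protein-coding genes, or 2.55 merged regions per gene, the 19th of 23 chromosomes, where the median chromosome has 3.11. Chromosome 17, the chromosome with the opposite split of group-only regions, was close to it by this measure, with 2.54 regions per gene, and chromosome 19 had 1.55. Genes on a chromosome are not independent of each other, and these ratios are descriptions without a test.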
